A study of Rattus norvegicus with 6 samples.

Results

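The angiotensin and endothelin systems were followed in primary chondrocytes from newborn rats through 9 genes, chosen by their symbols as the peptide precursors, processing enzymes and receptors of both systems. All 9 were found once among the 18923 genes of the files, and all 9 passed the filter on low counts. They were Agt, Ace, Agtr1a and Agtr2 of the angiotensin system, Edn1, Ece1, Ednra and Ednrb of the endothelin system, and Mme, which serves both. The cells were wild type, were taken by collagenase from the cartilage of female Sprague-Dawley rats aged 24 h, and were used at passage 1 or 2. The CON group (3 samples) stayed in high-glucose DMEM with serum for 24 h, and the RA group (3 samples) received the same medium with 1 µM all-trans retinoic acid (RA), which is made from vitamin A and binds nuclear receptors. Both groups shared the serum, antibiotics are named only for the general culture, and no vehicle is named for CON. The samples are described as independent, without saying whether each came from its own animals, so p-values measure the spread between these samples.

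Angiotensinogen, the product of Agt, is the source of angiotensin I, which angiotensin-converting enzyme (ACE, from Ace) turns into the active peptide angiotensin II. Angiotensin II acts on the AT1 receptor, which raises calcium and constricts vessels, and on the AT2 receptor, which often opposes AT1 and is best known from fetal mesenchymal tissue. Endothelin-1 is released from the Edn1 precursor by furin-like proteases and the endothelin-converting enzyme of Ece1, and acts on the receptors ETA (Ednra) and ETB (Ednrb). Neprilysin, the product of Mme, degrades endothelin and other small peptides and cuts angiotensin I to a shorter peptide.

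Total counts ran from 30170909 to 38007486 in CON and from 29370025 to 30952882 in RA. Of 10 chondrocyte markers, all 10 were tested, and their summed level was 8029.8 to 9928 FPKM (reads scaled by the length of the gene and the total of the sample) in CON and 5034 to 5364 in RA, with 9 of the 10 lower in RA by the test below, where 2.29% of all tested genes were. Comp kept this call in 4 and Col11a1 in 5 of the 6 fits that omitted a sample. Among 8 genes known to respond to retinoids, 6 rose in RA and none fell, where 2.67% of all tested genes rose by that test, and Cyp26a1 had a mean of 0.389 FPKM in CON and 4.01 in RA. Of these 6 calls, that of Rarb (adjusted p = 0.0493, edgeR) held in 1 and that of Tgm2 in 5 of the 6 fits that omitted a sample, and the other 4 held in all. Of 10 endothelial markers, 7 were analysed here (all but Pecam1, Tie1 and Robo4); Emcn was at 0 in all samples, Cdh5, Kdr, Tek, Vwf and Esam were below 0.5 FPKM in all, and the sum, carried by Egfl7, was 5.61 to 8.07 FPKM in CON and 6.32 to 6.85 in RA.

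Ace and Ednra rose in RA and Agtr2 fell, while the other 6 genes did not pass the test. The rise of Ace was 2.28-fold and that of Ednra 1.73-fold, and the CON level of Agtr2 was 2.92 times its RA level. A differentially expressed gene (DEG) had a Benjamini-Hochberg adjusted p below 0.05 in edgeR's quasi-likelihood test, over 13438 genes, together with a log2 fold change above 0.58 or under -0.58. By this rule 3 of the 9 genes were DEGs, where the background was 4.96% of all tested genes. The 9 genes were chosen with earlier results of these data known. The study had already named ACE and EDNRA among targets drawn partly from the same RNA sequencing, so this count is not independent of those results. The count of higher DEGs was 2 against a background of 2.67%, and that of lower DEGs was 1 against 2.29%. Ednra lost its call without RA sample 1 or without RA sample 3 (adjusted p = 0.0573 and 0.0704, edgeR). The median log2 fold change of the 9 was -0.037, and that of all tested genes -0.0057. The groups did not overlap in FPKM for Ace, Ednra and Agtr2, while 32.2% of all tested genes had no overlap.

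The 250 bases before the start of each gene are shown for Ace, Ednra and Agtr2, the 3 DEGs, and for Mme, whose level hardly moved. They come from a table of RefSeq windows on assembly GRCr8, in which 8 of the 9 genes were matched, Agt being the exception. This is a later assembly than that of the counts. The windows lie at chr10:91409879-91410128 (Ace), chr19:47137674-47137923 (Ednra), chrX:116914070-116914319 (Agtr2) and chr2:149872247-149872496 (Mme), all on the + strand. Capitals mark the hexamers that retinoid receptors are known to bind, searched on both strands: AGGTCA itself and its variants, which were GGGTCA and also AGTTCA and lastly GGTTCA.
Ace: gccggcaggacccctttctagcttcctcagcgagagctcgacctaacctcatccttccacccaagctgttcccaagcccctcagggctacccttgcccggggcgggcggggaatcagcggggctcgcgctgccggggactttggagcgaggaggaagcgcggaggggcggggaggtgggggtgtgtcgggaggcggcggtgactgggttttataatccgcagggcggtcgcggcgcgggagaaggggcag
Ednra: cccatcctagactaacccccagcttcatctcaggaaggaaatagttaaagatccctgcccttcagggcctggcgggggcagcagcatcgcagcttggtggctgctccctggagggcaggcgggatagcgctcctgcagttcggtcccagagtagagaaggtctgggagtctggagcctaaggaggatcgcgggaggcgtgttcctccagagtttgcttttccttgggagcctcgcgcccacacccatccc
Agtr2: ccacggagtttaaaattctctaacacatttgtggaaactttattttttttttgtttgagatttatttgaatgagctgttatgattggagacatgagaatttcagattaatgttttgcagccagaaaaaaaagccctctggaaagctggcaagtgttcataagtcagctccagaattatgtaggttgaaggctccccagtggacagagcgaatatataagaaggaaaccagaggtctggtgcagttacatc
Mme: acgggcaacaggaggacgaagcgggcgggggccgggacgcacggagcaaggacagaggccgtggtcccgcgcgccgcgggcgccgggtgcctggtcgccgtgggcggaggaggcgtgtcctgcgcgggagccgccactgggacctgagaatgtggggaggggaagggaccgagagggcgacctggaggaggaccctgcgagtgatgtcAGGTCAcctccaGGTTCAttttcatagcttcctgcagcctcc

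None of these letters occurred in the windows of Ace, Ednra or Agtr2, and none occurred in that of Ece1. The Mme window held AGGTCA, which began 42 bases before the start, and GGTTCA, which began 30 bases before it. Agtr1a, Edn1 and Ednrb each held 1 such hexamer, so 4 of 8 windows had at least 1, and 39.1% of 33465 rat windows of this length did. A direct repeat of these hexamers with 1, 2 or 5 bases between them, the arrangement known for retinoid receptor pairs, was in 0 of the 8 and in 0.651% of all windows. The windows differed in base composition, with a GC content of 69.2% for Ace and 38% for Agtr2. These matches are letters in a short window and were not tested for binding.

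**Figure D1:**
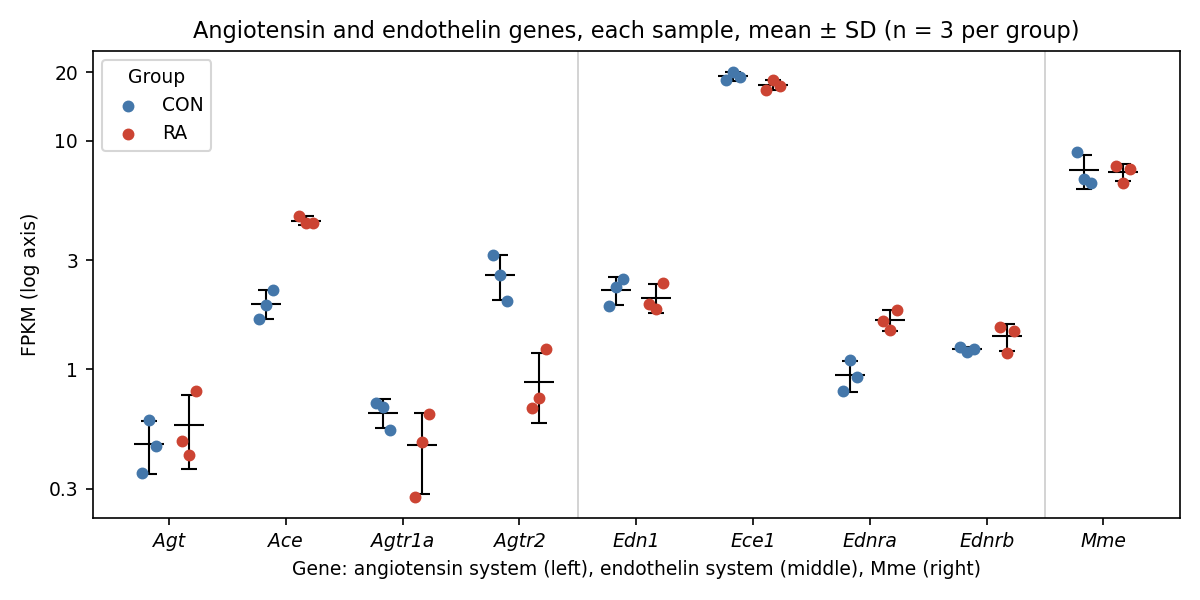
FPKM of the 9 genes in each CON (blue) and RA (red) sample on a log axis, with the mean and the SD of each group (n = 3). The RA points of Ace (4.35 to 4.71) and Ednra (1.48 to 1.82) lie above all CON points, those of Agtr2 (0.675 to 1.23) lie below them, and the groups of the other 6 genes overlap.

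Ace (ENSRNOG00000062101) had 1.67, 1.92 and 2.23 FPKM in CON samples 1 to 3 and 4.71, 4.37 and 4.35 in RA samples 1 to 3. Each RA sample was above each CON sample, and the RA samples lay close together. The underlying counts were 193 to 319 reads in CON and 483 to 526 in RA. The log2 fold change was 1.19 (standard error 0.127, 95% interval 0.90 to 1.48, adjusted p = 7.77e-04, edgeR's quasi-likelihood test). Leaving out any 1 of the 6 samples kept it a DEG, with log2 fold changes from 1.09 to 1.31. Ace can give transcripts from more than 1 promoter, and the gene counts do not separate them.

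Agt (ENSRNOG00000018445), the source of all angiotensin peptides, was the least expressed of the 9 genes in CON. It had 0.354, 0.60 and 0.463 FPKM in the CON samples and 0.488, 0.423 and 0.802 in the RA samples, and RA sample 3 was above all others while the groups overlapped. These values rest on 21 to 35 reads in CON and 24 to 48 in RA, so that 1 read was worth 0.0168 FPKM in CON sample 1. The log2 fold change was 0.26 (standard error 0.335, 95% interval -0.50 to 1.03, adjusted p = 0.673, edgeR). An interval this wide leaves a doubling within reach, and without RA sample 3 the sign turned, to -0.066.

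The 2 angiotensin receptor genes were both lower on average in RA, but only Agtr2 passed the test. Agtr2 (ENSRNOG00000050006), which encodes AT2, had 3.15, 2.59 and 2.00 FPKM in the CON samples and 0.675, 0.751 and 1.23 in the RA samples. No RA sample reached the lowest CON sample, and RA sample 3 was the highest of its group. The counts were 224 to 285 reads in CON and 59 to 112 in RA. The log2 fold change was -1.55 (standard error 0.259, 95% interval -2.14 to -0.95, adjusted p = 0.00715, edgeR), and it ran from -1.86 without RA sample 3 to -1.38 without RA sample 1, always as a DEG. In bulk RNA, fewer cells that express a gene and less RNA per cell cannot be told apart. The chondrocyte markers fell in the same samples, and their part in this change was not tested.

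Agtr1a (ENSRNOG00000018346), which encodes an AT1 receptor, had 0.716, 0.683 and 0.542 FPKM in the CON samples and 0.278, 0.484 and 0.636 in the RA samples. RA samples 1 and 2 were below all CON samples, and RA sample 3 fell among them. With 45 to 48 reads in CON and 18 to 43 in RA, the log2 fold change was -0.48 (standard error 0.322, 95% interval -1.21 to 0.26, adjusted p = 0.41, edgeR). The value was -0.77 without RA sample 3 and -0.21 without RA sample 1, and no fit without 1 sample called it. Rats carry a close copy, Agtr1b, whose counts were 18 to 33 in CON and 14 to 17 in RA (log2 fold change -0.54, adjusted p = 0.401, edgeR). How reads that match both genes were assigned is not given in the sources used here, so the split between them is uncertain.

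The endothelin side changed at 1 receptor and at neither the peptide nor the converting enzyme by the test. Ednra (ENSRNOG00000012721), the gene of ETA, had 0.808, 1.10 and 0.922 FPKM in the CON samples and 1.63, 1.48 and 1.82 in the RA samples. The lowest RA sample was above the highest CON sample. The counts were 126 to 178 reads in CON and 221 to 286 in RA. On the log2 scale the change was 0.79 (standard error 0.153, 95% interval 0.44 to 1.14, adjusted p = 0.0136, edgeR). Its call rested on single libraries: the adjusted p was 0.0573 without RA sample 1 (log2 fold change 0.80) and 0.0704 without RA sample 3 (0.71), and the gene was a DEG in the other 4 fits.

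Ednrb (ENSRNOG00000010997), the gene of ETB, had 1.26, 1.2 and 1.23 FPKM in the CON samples and 1.54, 1.18 and 1.47 in the RA samples. RA samples 1 and 3 were above the CON samples, and RA sample 2 was the lowest of all 6. Its fitted log2 fold change was 0.17 (standard error 0.176, 95% interval -0.23 to 0.58, adjusted p = 0.595, edgeR), with 69 to 93 reads per sample. Its interval overlaps that of Ednra.

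Edn1 (ENSRNOG00000014361), the endothelin-1 precursor, ranged from 1.90 to 2.50 FPKM in CON and from 1.84 to 2.39 in RA, on 75 to 132 reads. The ranges nearly coincided, and the log2 fold change was -0.13 (standard error 0.19, 95% interval -0.57 to 0.30, adjusted p = 0.718, edgeR). Edn1 is best known from endothelium. Of the 7 endothelial markers with a row, 6 were below 0.5 FPKM in all samples, and Egfl7 had 5.28 to 7.97 FPKM in CON and 6.04 to 6.73 in RA. Ece1 (ENSRNOG00000014241) was the most abundant of the 9 genes, at 18.4 to 20.02 FPKM in CON and 16.8 to 18.5 in RA. It was also the most precisely measured (log2 fold change -0.14, standard error 0.0667, 95% interval -0.29 to 0.014, adjusted p = 0.249, edgeR), and this interval excludes a change as large as the threshold of 0.58.

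Mme (ENSRNOG00000009514) was second in abundance. It had 8.90, 6.82 and 6.54 FPKM in the CON samples and 7.78, 6.56 and 7.51 in the RA samples, all RA values falling inside the CON range. The log2 fold change was -0.037 (standard error 0.126, 95% interval -0.33 to 0.25, adjusted p = 0.888, edgeR), and it was 0.11 without CON sample 1 and 0.029 without RA sample 2. Mme is also a known surface marker of bone-forming and stromal cells.

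**Figure D2:**
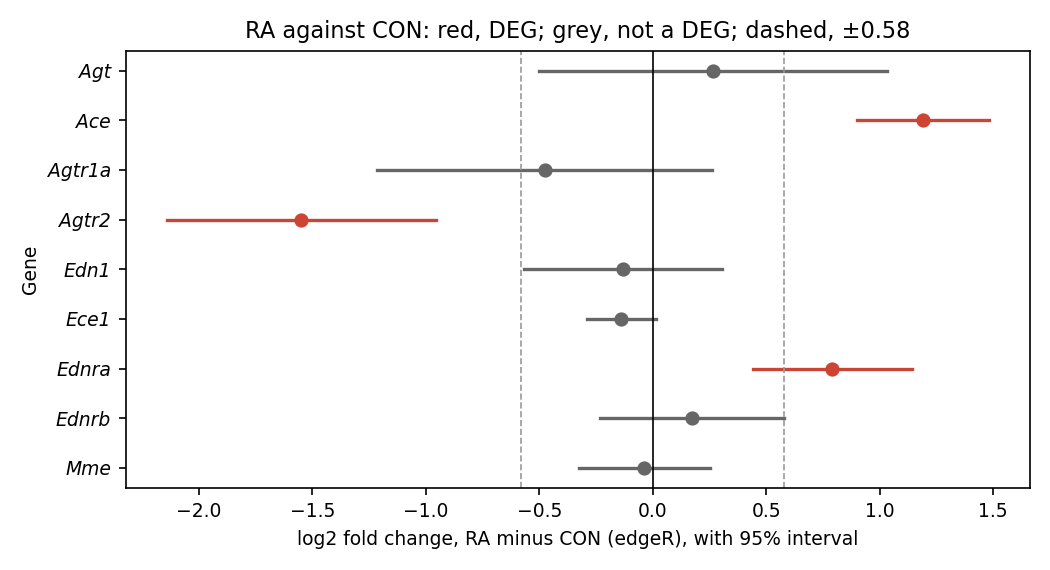
Fitted log2 fold change of each gene in RA against CON (points) with its 95% interval (lines); red marks DEGs, and dashed lines mark 0.58 in either direction. Only the intervals of Ace (0.90 to 1.48), Ednra (0.44 to 1.14) and Agtr2 (-2.14 to -0.95) exclude 0, and those of Agt and Agtr1a are the widest of the others.

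In CON the mean levels ran in the order Ece1 (19.2 FPKM), Mme (7.42), Agtr2 (2.58), Edn1 (2.23), Ace (1.94), Ednrb (1.23), Ednra (0.942), Agtr1a (0.647) and Agt (0.472). Neighbours whose sample ranges overlapped were Agtr2 and Edn1, Edn1 and Ace, and Agtr1a and Agt. In RA, Ace came next after Mme at 4.48 FPKM, and Agtr2 had 0.885. Edn1 (2.06 FPKM), Ednra (1.64) and Ednrb (1.40) lay between these, and Agt (0.571) and Agtr1a (0.466) came last. The ranges of Ednra and Ednrb, Ednrb and Agtr2, Agtr2 and Agt, and Agt and Agtr1a overlapped in RA. Among all genes with a read, the percentile of the mean level was 43.6 in CON and 53.1 in RA for Ace, and 46.4 and 37.7 for Agtr2.

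Plain ratios within a sample describe the balance of paired genes without any scaling between samples. The log2 ratios, with 0.1 FPKM added to both genes, still depend in part on that scaling. The FPKM of Agtr1a was 0.227, 0.264 and 0.271 times that of Agtr2 in the CON samples and 0.412, 0.643 and 0.518 times in the RA samples. The Agtr2 value was above that of Agtr1a in all 6 samples, by less in RA. Agtr1b is not part of this ratio, and since its reads and those of Agtr1a may be split uncertainly, the level of the ratio is uncertain too. In RA sample 2, Agtr1a had 0.484 FPKM, Agtr1b 0.265 and Agtr2 0.751. The mean log2 ratio with 0.1 FPKM added to both genes moved from -1.83 ± 0.148 to -0.81 ± 0.248 (n = 3 per group, ± SD), a difference of 1.02 (exact permutation test, two-sided, p = 0.1). With 3 samples against 3, no such test can give a p below 0.1.

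Ednra to Ednrb went from 0.643, 0.916 and 0.752 in the CON samples to 1.06, 1.26 and 1.23 in the RA samples. By FPKM, Ednrb was the higher of these genes in each CON sample and Ednra in each RA sample. In reads, Ednra was above Ednrb in all samples, with 126 to 178 against 72 to 93 in CON. Which of them is higher thus depends on the gene lengths behind FPKM. The log2 ratio with the same addition moved from -0.36 ± 0.233 to 0.23 ± 0.125 (n = 3 per group, ± SD), a difference of 0.58 (exact permutation test, two-sided, p = 0.1), which was 0.34 with 1 FPKM added. Ace to Mme, the enzymes that turn angiotensin I into different peptides, went from 0.188, 0.282 and 0.341 to 0.605, 0.666 and 0.579. Mme stayed above Ace in all samples, and the log2 ratio moved from -1.88 ± 0.427 to -0.69 ± 0.101 (n = 3 per group, ± SD), by 1.19 (exact permutation test, two-sided, p = 0.1). Adjusted over these 3 ratios by Benjamini-Hochberg, each p stayed at 0.1.

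**Figure D3:**
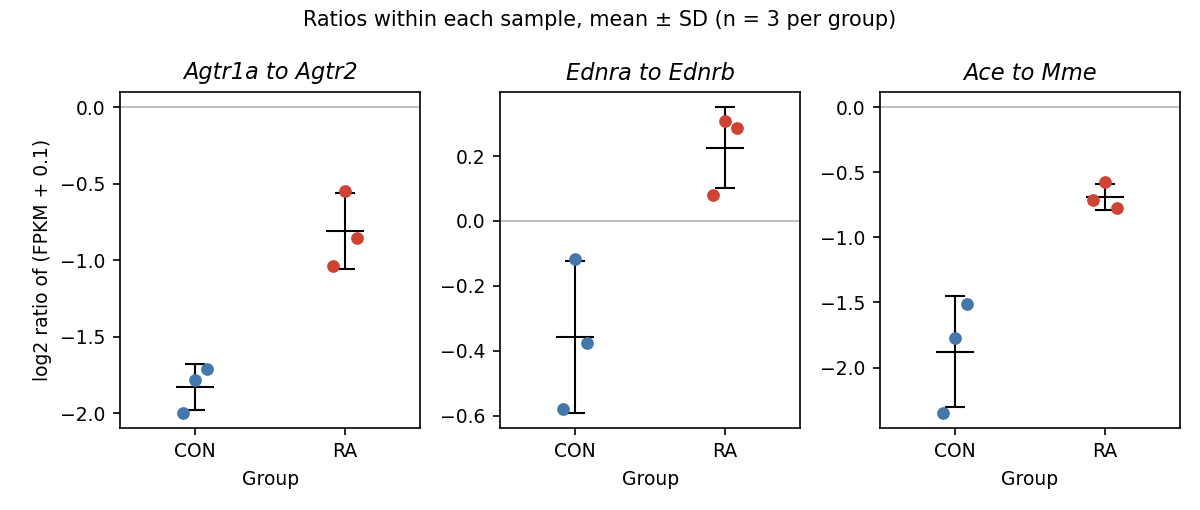
Log2 ratio of the FPKM of paired genes (0.1 added to both) in each CON (blue) and RA (red) sample, with mean and SD (n = 3 per group); each panel has its own axis. The groups do not overlap in any panel, and the Ednra to Ednrb ratio lies below 0 in all CON samples and above 0 in all RA samples. Where 0 falls depends on the gene lengths behind FPKM.

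The rest of both pathways was read from 5 lists with 87 genes in all, of which 77 had a row in the files and 58 passed the filter on low counts. Of the 58 tested genes 7 were DEGs, with 5 higher and 2 lower in RA, beside a background of 2.67% higher and 2.29% lower among all tested genes. The other genes of the angiotensin system, mainly peptidases and receptors, made up the first list, with 14 of 20 genes tested, a median log2 fold change of 0.092 and 1 DEG. This was Enpep, the gene of aminopeptidase A, which shortens angiotensin II to angiotensin III. Enpep had 13.3, 11.4 and 11.2 FPKM in the CON samples and 23.7, 23.4 and 24.1 in the RA samples, with all RA samples far above CON. Its log2 fold change was 0.98 (adjusted p = 1.68e-04 in edgeR, standard error 0.0772), and the call held when any 1 sample was left out. Without CON sample 1 the list had 2 DEGs, the other being Lnpep (-1.13, adjusted p = 4.87e-04, edgeR, against -0.79 and 0.216 with all samples). Lnpep encodes the aminopeptidase known as the angiotensin IV receptor and had 132 to 414 reads in CON.

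Little of the remaining endothelin family could be measured. Of 6 listed genes, 1 was tested: Ece2, a relative of Ece1, whose FPKM went from 3.15 ± 0.187 to 2.61 ± 0.166 (n = 3 per group, ± SD), without a call (log2 fold change -0.28, adjusted p = 0.147 in edgeR's test). The other endothelin genes Edn2 and Edn3 had at most 1 read in any sample, so that Edn1 was the only endothelin gene with reads beyond this.

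Of 17 genes for other peptides that ACE or neprilysin cuts and for their receptors, 7 were tested, and 2 of these were DEGs in opposite directions, a count over few genes to be read beside the 4.96% of all tested genes. Both encode receptors of natriuretic peptides, which relax vessels and, as the C-type peptide, drive growth of cartilage. Npr1, the receptor with cyclase activity for the atrial peptide, had 0.232, 0.350 and 0.395 FPKM in the CON samples and 0.878, 0.829 and 0.985 in the RA samples (log2 fold change 1.44, standard error 0.23, adjusted p = 0.0058, edgeR). Npr3, the clearance receptor, had 10.3, 11.1 and 10.6 FPKM in the CON samples and 4.75, 4.92 and 5.14 in the RA samples (log2 fold change -1.12, standard error 0.0852, adjusted p = 1.34e-04, edgeR). Both stayed DEGs without any 1 sample. The list's median was 0.35, and Nppc, which encodes the C-type peptide, had no read in any sample.

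Among 24 genes of the G proteins, phospholipases, calcium channels and kinases behind these receptors, and of the proteins that switch the receptors off, 20 were tested and 1 was a DEG, which is 5.0% of them and near the background of 4.96%. Arrb1, which encodes beta-arrestin 1, a protein that uncouples and internalizes such receptors, had 2.93, 4.41 and 3.71 FPKM in the CON samples and 11.7, 10.1 and 10.9 in the RA samples. The lowest RA sample was far above the highest CON sample. The log2 fold change was 1.55 (adjusted p = 3.29e-04 in edgeR, standard error 0.142) and ran from 1.41 to 1.69 with each sample left out, always as a DEG. The median of the list was 0.072, and its other 19 tested genes were not DEGs.

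A last list held 20 genes that respond to angiotensin II or endothelin in other cells, of which 16 were tested and 3 were DEGs, with the background again at 4.96%. These were Spp1 (osteopontin, log2 fold change 1.88) and Ccl2 (a monocyte chemokine, 1.22), both higher, and Nox4 (an oxidase that makes hydrogen peroxide), which was lower at -0.75. Nox4 had 1.02, 0.981 and 1.01 FPKM in the CON samples and 0.512, 0.663 and 0.629 in the RA samples (adjusted p = 0.0263, edgeR). Leaving out 1 sample at a time kept the call in 1 of 6 fits, the one without CON sample 1. In the other 5 the adjusted p (edgeR) ran from 0.0641 to 0.0982, with log2 fold changes from -0.83 to -0.64. The median of this list was 0.099, and 13 of its genes were not DEGs.

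**Figure D4:**
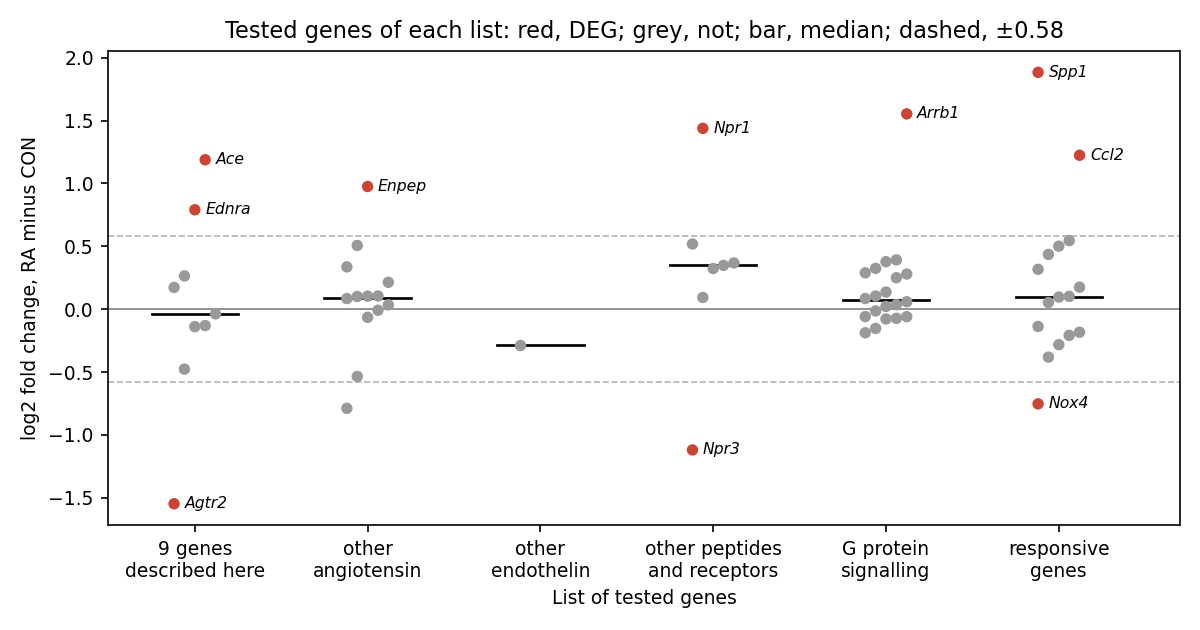
Log2 fold change, RA minus CON, of the 9 genes and of the tested genes of the 5 pathway lists that are reported singly (points, red for DEGs, which are named), with the median of each whole list (bar) and dashed lines at 0.58 in either direction. The medians of the lists lie between -0.28 and 0.35, and Lnpep (-0.79) of the first list lies below the lower dashed line without being a DEG.

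The genes whose pattern was most like each of the 3 DEGs were taken by Pearson's r of log2 TMM-normalized counts over the 6 samples, among 11341 other genes with a mean of at least 1 FPKM. For Ace they were Slc20a2, Glipr2 and Zcchc24 (r = 0.998, 0.998 and 0.997), for Agtr2 Tnnt3, Rmdn1 and Cap2 (0.995, 0.993 and 0.992), and for Ednra Itpa, Tgm2 and Mis18a (0.992, 0.991 and 0.99). These values describe 6 points that fall into 2 groups, and 880, 459 and 704 genes had an r above 0.9 with Ace, Agtr2 and Ednra.

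Markers of other cells were read beside these genes. Smooth muscle and pericyte markers (11 in the files) summed to 552 to 623 FPKM in CON and 468 to 507 in RA, mostly through Tagln and Acta2. Of 10 tested, 2 were lower in RA, Acta2 and Cspg4, where 2.29% of all tested genes were. Cspg4 (adjusted p = 0.0416, edgeR) kept its call in 1 of the 6 fits without 1 sample and lost it in the other 5. Markers of fibroblasts or perichondrium (9 in the files, all tested) summed to 3964 to 5083 FPKM in CON and 4987 to 5224 in RA. Col1a1 and Col3a1 carried most of this sum. Of the 9, 1 was lower, Postn, beside the same 2.29%. By the adjusted p alone Pdgfra was higher (log2 fold change 0.44, adjusted p = 0.00155, edgeR) and Dcn lower (-0.41, adjusted p = 0.0378, edgeR), both short of the threshold on size. Macrophage markers summed to 2.25 to 2.69 FPKM in CON and 1.73 to 2.91 in RA, with Ptprc and Adgre1 near 0 and none of 4 tested a DEG. The part of such cells in the changes of Ace, Ednra and Agtr2 was not tested.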

How the data were processed

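RNA libraries of 3 CON and 3 RA samples were sequenced, and groups and numbers were taken from the sample titles. The authors deposited whole-number counts per gene, without normalization, and FPKM, which scale each count by a gene length and by the total of the sample. The submitters' processing notes name HISAT2, HTSeq 0.13.5 and the assembly Rnor_6.0. The annotation and the use of strand are not given in the sources used here. The 9 genes and all lists were chosen with earlier results of these data known.

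Counts were filtered with filterByExpr (minimum count 10), normalized by TMM and tested with edgeR 4.0.16 (glmQLFit, glmQLFTest; R 4.3.3) without covariates, and p-values were adjusted over 13438 genes. The threshold of 0.58 on log2 fold changes follows the study's methods. Standard errors come from the F statistic. Where a symbol had several identifiers, the one with the highest mean count was used. A count of 0 allows up to 3 reads, by counting error only. Of the first pathway list, 1 gene entered the counts and median but is not reported here or plotted. Scripts were tested on simulated data. Alternatives used DESeq2 1.42.0, limma 3.58.1, other scalings, filters and call rules, the replicate number as a block, and each sample left out. The genes named were all 9, the DEGs of each list, otherwise up to 3 genes with its lowest p-values, and the 3 genes most like each DEG; Agtr1b, Lnpep, Edn2, Edn3, Nppc, Cyp26a1, Rarb and single markers were named after their values were seen.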

Additional observations from a re-analysis of the deposited data

How the results depend on the processing

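Of the 9 genes 3 were DEGs under each alternative except 3, which gave 2: the fits without RA sample 1 and without RA sample 3, and limma on log2(FPKM + 1), where the log2 fold change of Ednra was 0.45 and thus below the threshold (adjusted p = 0.0204, range over its alternatives 1.33e-04 to 0.0704). Ace (0.90 to 1.31, adjusted p at most 0.00739) and Agtr2 (-1.86 to -0.92, at most 0.0429) were DEGs under all 13 alternatives, and Agtr1a, Edn1, Ece1 and Ednrb under none, without a change of sign. With each sample left out in turn, Agt ran from -0.066 to 0.46 and Mme from -0.11 to 0.11, both without a call. Over all tested genes, 667 DEGs became 434 with limma on log2(FPKM + 1), 1319 with the adjusted p alone and 1017 with the unadjusted p and the fold change, and stayed between 480 and 755 with each sample left out. The adjusted p alone drops the fold change, and the unadjusted p drops the adjustment, so on the same fit both rules can only add genes. The cause of the other changes was not tested. The ratio of Agtr1a to Agtr2 ran from 0.88 to 1.13, that of Ednra to Ednrb from 0.47 to 0.70 and that of Ace to Mme from 0.96 to 1.37 with each sample left out, as differences on the log2 scale. With 1 FPKM added in place of 0.1 these differences were 0.75, 0.34 and 0.92, and with 0.01 they were 1.03, 0.63 and 1.23.

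The replicate numbers were not shown to pair samples: deviations of same-numbered samples correlated at 0.2, -0.0095 and 0.072. Those of differently numbered samples ran from -0.235 to 0.166. With the replicate number as a block 684 genes were DEGs, 3 of the 9 among them, and the ratios gave the same differences (1.02, 0.58 and 1.19) with an exact p of 0.25, the smallest that 3 pairs allow. At these depths the intervals of Agt and Agtr1a, on fewer than 50 reads per sample, span more than the threshold.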

Other observations

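The genes below were chosen after their values were seen. Anpep, the gene of aminopeptidase N, which acts after aminopeptidase A on angiotensin peptides, went from 49.9 ± 3.23 to 71.5 ± 3.02 FPKM (n = 3 per group, ± SD). Its log2 fold change was 0.51 (adjusted p = 0.00316 in edgeR's test), below the threshold of 0.58. Npr2, the receptor of the C-type natriuretic peptide, was the most abundant of the 3 natriuretic receptor genes, at 29 ± 2.76 FPKM in CON against 37.2 ± 1.69 in RA (n = 3 per group, ± SD). Its log2 fold change was 0.35 (adjusted p = 0.0362 in edgeR's test). Ramp3, which encodes a partner protein of the adrenomedullin receptor, changed by 0.52 on the log2 scale (adjusted p = 0.004 in edgeR's test), below the threshold on size, while Calcrl, the receptor itself, had 5 to 17 reads per sample and was not tested.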
